A study of Homo sapiens with 4 samples.

Results

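The nuclear genes that encode subunits of the mitochondrial respiratory chain were followed in 786-O cells with and without the chemokine MCP-1. The members were taken by symbol: NDUFA, NDUFB, NDUFC, NDUFS or NDUFV with a number, SDHA to SDHD, symbols that begin with UQCR, COX4 to COX8 with any suffix, and symbols that begin with ATP5. The gene table of the array listed 77 such genes among 17687 named genes, each with 1 probe set, of which 31 belong to complex I, 3 to complex II, 8 to complex III, 17 to complex IV and 18 to complex V. The prefix ATP5 also takes in ATP5IF1, an inhibitor of the enzyme rather than a subunit of it, and ATP5MF-PTCD1, a readthrough transcript of neighbouring genes. None of the subunits encoded by mitochondrial DNA had a row with a symbol, so the data cover the nuclear share of each complex only.

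786-O, also known as CRL-1932, is a single established human line of clear cell renal carcinoma without a working VHL protein. RNA was measured on 4 Clariom S arrays. Of these, 2 were of untreated cells of the same passage, and their labels do not say whether they came from separate cultures. The other 2 were of cultures given recombinant human MCP-1 at 5 ng/mL. The treatment lasted 16 h by the sample labels and 24 h by the methods of the study. All cells were grown in the same serum-containing medium, and the line was not altered genetically for these arrays. The comparison was made to find which cellular processes MCP-1 signalling touches. Values are log2 signals, so that a difference of 1 is a 2-fold change, and each difference is MCP-1-treated minus untreated.

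The respiratory chain carries electrons from NADH through complex I, or from succinate through complex II, by way of ubiquinone to complex III, and from there through cytochrome c to complex IV, where oxygen is reduced. Complexes I, III and IV pump protons across the inner mitochondrial membrane, and complex V, the ATP synthase, lets them flow back to make ATP. Normal proximal tubule cells depend heavily on this pathway, whereas clear cell renal carcinoma is known for a shift towards glycolysis under stable hypoxia-inducible factors. Most subunits are encoded in the nucleus and must be made in proportion with the few encoded by mitochondrial DNA.

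The median log2 signal of the 21448 tested probe sets lay between 6.20 and 6.28 on the 4 arrays, and the arrays correlated with each other at 0.9929 to 0.9951 across probe sets, with MCP-1-treated replicate 2 lowest against each of the others. As a background level, the 90th percentile of the negative control probe sets was between 6.36 and 6.70 on single arrays and 6.11 for their means over arrays. All 7 markers of renal epithelium and of this line (PAX8, PAX2, KRT8, KRT18, VIM, CDH2 and EPAS1) were above that level. Of 5 monocyte and macrophage markers only CD68 was above it, and of 4 endothelial markers none was. With bulk RNA, fewer cells of a type and less RNA per cell cannot be told apart.

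Most subunit genes read slightly lower after MCP-1, but no single gene passed the test. Of the 77 members, 55 had a lower and 22 a higher mean in treated cells, with a median difference of -0.089, beside a median of 0.013 over all tested probe sets, of which 47.7% were lower. Limma called 0 members at an adjusted p below 0.05, where it called 7 of all 21448 probe sets (0.0326%), and the adjusted p of every member was 1. At an unadjusted p below 0.05 limma listed 0 members, beside 4.95% of all tested probe sets, and the methods' t-test listed 6 (7.79%), beside 4.53%. With a robust prior that follows signal level, limma listed 4 of the 77 members, beside 1150 of all 21448 probe sets. With a fold of at least 1.5 at an unadjusted p below 0.05, limma listed 0 members and 4.23% of all tested probe sets.

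The arrays of both groups were then set against each other gene by gene. In 20 members (26%) both treated arrays lay below both untreated arrays, which was the case for 15.2% of all tested probe sets. In 2 members (2.6%) both treated arrays lay above both untreated arrays, against 16.3% of all tested probe sets. Since the members are mostly bright, the same count was made over probe sets with a mean log2 signal above 10, a comparison added after the data had been seen: 17 of 61 such members were lower without overlap and 1 was higher, beside 16.7% and 16.8% of 5276 probe sets. These shares are a description of 4 arrays and carry no test.

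The untreated replicates differed from each other by as much as the groups did. The signal of untreated replicate 1 was above that of untreated replicate 2 in 56 of 77 members, with a median difference of 0.114, while treated replicates 1 and 2 differed by a median of 0.029. Within pairs of the same number, the median difference between treated and untreated cells was -0.132 in pair 1 and -0.039 in pair 2, and 30 members were lower and 7 higher in both pairs. Without untreated replicate 1 the median over members was -0.046, and without untreated replicate 2 it was -0.172. The lower median of the treated group was thus present with either untreated replicate, and its size depended on which one was used.

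The share of members without overlap was also read with 1 array left out, when fewer arrays make separation more frequent for all probe sets. Without untreated replicate 1, 27 members (35.1%) were lower without overlap beside 29.5% of all tested probe sets, and 17 (22.1%) were higher beside 30.6%. Without untreated replicate 2, 43 members (55.8%) were lower beside 28.9% of all. The count was 40 (51.9%, beside 31.5% of all) without MCP-1-treated replicate 1 and 33 (42.9%, beside 37% of all) without MCP-1-treated replicate 2. The share of lower members stood above that of all probe sets each time, and lay nearest to it when untreated replicate 1 or MCP-1-treated replicate 2 was left out.

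**Figure D1:**
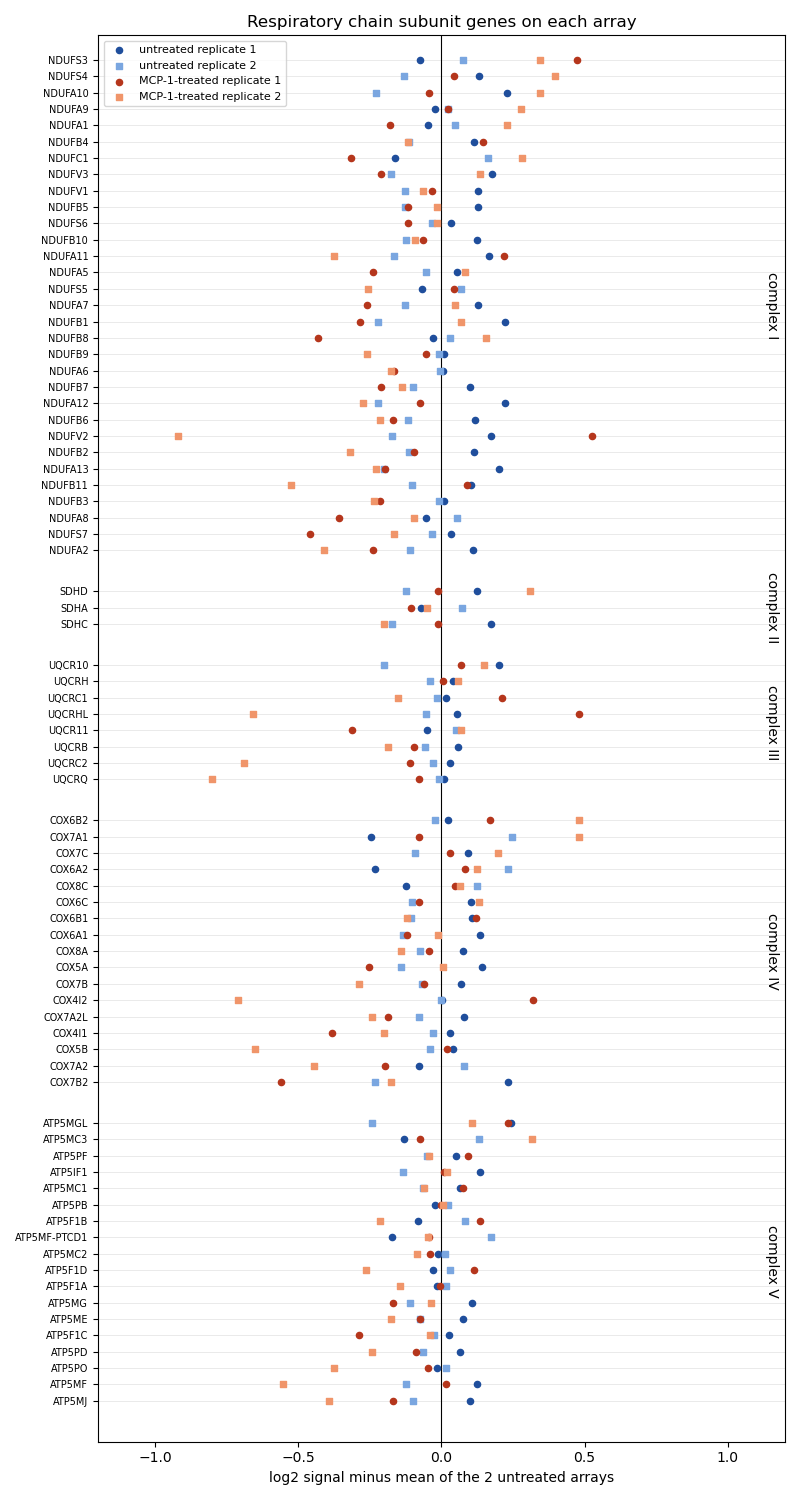
Log2 signal of each of the 77 subunit genes on each array, minus the mean of both untreated arrays (horizontal axis), with genes grouped by complex and ordered by their difference. Circles are replicate 1 and squares replicate 2, blue untreated and red or orange MCP-1-treated. Most treated points lie left of 0, and few genes have both treated points clear of both untreated points.

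The precision of 2 arrays a group set a wide limit on each gene. The standard error of a member's difference had a median of 0.25, and the 95% confidence interval of all 77 members included 0. The lowest bound was -1.03 (UQCRQ) and the highest 0.95 (NDUFS3), and UQCRQ was the only member whose interval reached a 2-fold change. The interval reached a median of 0.55 on the log2 scale to either side of the difference, which is 1.46-fold. These widths come mostly from a spread that limma shares over all probe sets. With a robust prior that follows signal level, the median standard error was 0.18. A p that missed the threshold does not show that a gene stayed the same.

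By complex, the median difference was -0.108 in complex I, -0.078 in complex II, -0.106 in complex III, -0.092 in complex IV and -0.068 in complex V. Lower means were found in 25 of 31, 2 of 3, 5 of 8, 11 of 17 and 12 of 18 genes, respectively. The complexes were not tested against each other. Between arrays of the same number, which are not shown to be pairs, complex I was at -0.209 in pair 1 and -0.0053 in pair 2. Complex III was at -0.108 and -0.133, and complex V at -0.018 and -0.100.

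**Figure D2:**
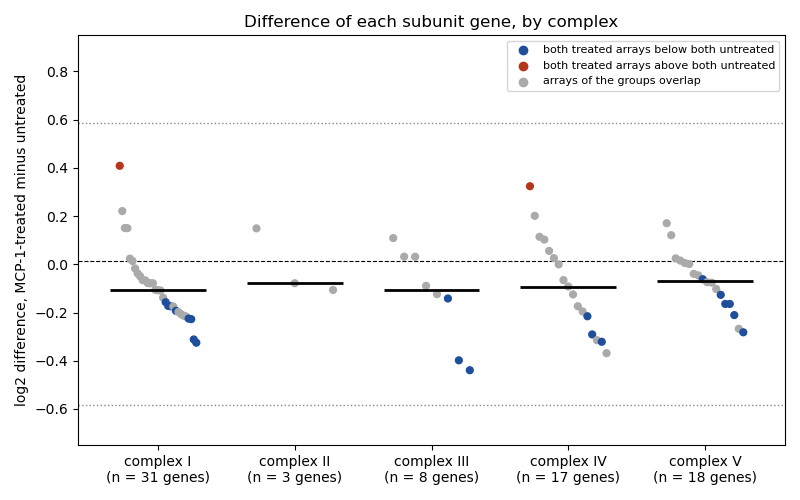
Log2 difference, MCP-1-treated minus untreated, of each subunit gene (points) by complex, with the median of each complex (bars). The dashed line is the median of all tested probe sets and the dotted lines mark a 1.5-fold change. All points lie between the dotted lines, and blue points (both treated arrays below both untreated) outnumber red ones 20 to 2.

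The promoters of these genes are known to share binding sites for nuclear respiratory factor 1, ETS factors such as GABP, and YY1, so the letters of such sites were searched in RefSeq promoter windows (GRCh38.p14, 250 bases before to 50 after the start), which matched 62 of the 77 members. The NRF1 motif, searched like the others on either strand, was held by 15 members (24.2%), beside 6.28% of 27305 promoters and 8.84% of 14250 promoters of genes on the array. The ETS letters CCGGAAGT were held by 8 members (12.9%, beside 4.44% of all promoters and 6.24% of those of genes on the array). The YY1 letters AAGATGGC were held by 9 (14.5%, beside 3.03% and 3.96%). The letters of a CREB site, TGACGTCA, were in 4 members (6.45%, beside 1.98% and 2.62%). Those of a CHOP-ATF4 composite element, TGATGNAA, were in NDUFS6 alone (1.61%, beside 3.67% and 2.52%). A CCAAT box was in 22 members (35.5%, beside 35.7% and 36.4%). A match is a match of letters and not a shown site.

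Stretches of promoters are printed to show how such letters lie in genes with unlike differences, with the matched letters in capitals and each sequence on the strand of its gene. UQCRQ had the lowest difference of all members and SDHD the highest of complex II, and NDUFA9 and UQCRC1 hold both the NRF1 and the YY1 letters.
UQCRQ, chr5:132866573-132866610, plus strand, ETS letters: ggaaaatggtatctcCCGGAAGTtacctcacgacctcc
SDHD, chr11:112086748-112086817, plus strand, NRF1 and then ETS letters on the opposite strand: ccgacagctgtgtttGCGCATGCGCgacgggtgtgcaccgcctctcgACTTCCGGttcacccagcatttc
NDUFA9, chr12:4649019-4649146, plus strand, NRF1 and then YY1 letters: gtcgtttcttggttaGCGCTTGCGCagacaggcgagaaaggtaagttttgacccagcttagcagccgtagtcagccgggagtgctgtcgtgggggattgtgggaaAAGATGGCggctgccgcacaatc
UQCRC1, chr3:48609601-48609708, minus strand, NRF1 and then YY1 letters: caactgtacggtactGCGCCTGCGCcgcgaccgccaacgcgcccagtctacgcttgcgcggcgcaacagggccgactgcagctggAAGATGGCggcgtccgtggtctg
Members with and without each motif overlapped in their differences, and no difference between them was tested. The median difference was -0.079 in the 15 members with NRF1 letters and -0.102 in the 47 without, -0.144 in the 8 with ETS letters and -0.079 in the 54 without, and 0.0012 in the 9 with YY1 letters and -0.102 in the 53 without. UQCRQ, SDHD and NDUFA9, printed above, differed by -0.44, 0.15 and 0.15, and UQCRC1 by 0.03.

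Complex I, the NADH dehydrogenase, takes electrons from NADH at the tip of its hydrophilic arm and passes them along iron-sulfur clusters to ubiquinone. Of its catalytic core, 4 nuclear members were measured, with a median difference of -0.124 and no common direction. NDUFS3, a core subunit of the ubiquinone-binding module, had log2 signals of 10.75 and 10.90 in untreated and 11.30 and 11.17 in treated cells. It was the only complex I member with both treated arrays above both untreated ones, at a difference of 0.41 (95% interval -0.14 to 0.95, adjusted p = 1 by limma).

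NDUFS7, the core subunit that holds the last iron-sulfur cluster before ubiquinone, went the other way. Its signals were 7.59 and 7.52 in untreated and 7.09 and 7.39 in treated cells, a difference of -0.31 without overlap. NDUFV1, which binds NADH and the flavin, was at 12.76 and 12.51 in untreated and 12.60 and 12.57 in treated cells, and its difference of -0.05 was smaller than the gap between the untreated arrays. NDUFV2, its iron-sulfur partner at the tip, was at 10.91 and 10.56 in untreated but at 11.26 and 9.82 in treated cells. Its treated replicates had a standard deviation of 1.02, the largest of all members, and the pairs gave 0.35 and -0.75, with a mean difference of -0.20.

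The other 27 complex I members are accessory subunits, which surround and stabilize the core, and 22 of them had a lower mean, with a median of -0.108. NDUFA2, an accessory subunit of the NADH-oxidizing module, had the lowest difference in the complex, with 11.24 and 11.03 in untreated and 10.90 and 10.72 in treated cells (-0.33, 95% interval -0.86 to 0.21). NDUFA8, an accessory subunit on the intermembrane side, was at 9.77 and 9.88 in untreated and 9.47 and 9.73 in treated cells, a difference of -0.23. Both genes were lower in treated cells without overlap, as were NDUFB3, NDUFB6, NDUFB7, NDUFA6 and NDUFB9.

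In NDUFA6 and NDUFB3 the replicates lay closest together, and both are singled out here after their values were seen. NDUFA6 was at 14.14 and 14.13 in untreated and 13.97 and 13.96 in treated cells, a difference of -0.17. NDUFB3, an accessory subunit of the membrane arm, was at 12.38 and 12.36 in untreated and 12.15 and 12.13 in treated cells, a difference of -0.23. In these genes the groups were many times farther apart than the replicates, although the change was only 1.13- and 1.17-fold. Both were among the 6 members listed by the methods' t-test without adjustment, together with NDUFA2, NDUFB2, ATP5PD and ATP5MJ, beside 4.53% of all tested probe sets by the same test. All 6 were lower in treated cells, by 1.25-fold at most, and their p adjusted over all probe sets was 1.

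Few accessory subunits were higher. NDUFS4, an accessory subunit needed to hold the NADH-oxidizing module in place, was at 9.62 and 9.36 in untreated and 9.54 and 9.89 in treated cells (0.22). NDUFA10, an accessory subunit of the membrane arm, was at 11.44 and 10.98 in untreated and 11.17 and 11.56 in treated cells (0.15). In both genes the groups overlapped, and the untreated arrays of NDUFA10 were farther apart than the groups. NDUFA9 reached a difference of 0.15, with 12.09 and 12.13 in untreated and 12.13 and 12.39 in treated cells.

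The untreated replicates differed from each other in complex I as well. Untreated replicate 1 was above untreated replicate 2 in 24 of 31 members, with a median difference of 0.218, beside a median difference between the groups of -0.108. Relative to the mean of the 4 arrays of each gene, the median member stood at 0.152 in untreated replicate 1, at -0.021 in untreated replicate 2, and at -0.081 and -0.040 in the treated replicates. Treated cells thus lay close to untreated replicate 2, and without untreated replicate 1 the median of the complex was -0.025.

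**Figure D3:**
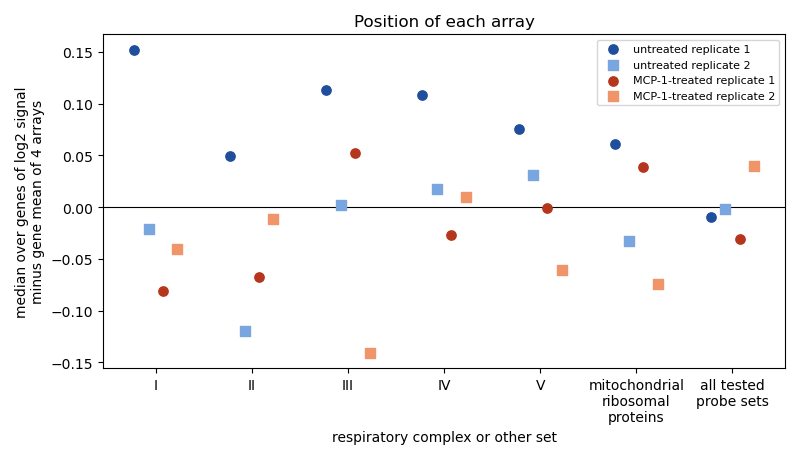
Median over genes of the log2 signal on each array minus the mean of the gene over the 4 arrays (vertical axis), for complexes I to V, the mitochondrial ribosomal proteins and all tested probe sets. Untreated replicate 1 (dark blue circles) is the highest array in each of the 5 complexes, at 0.15 in complex I, and the other 3 arrays have no common order.

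Complex II, succinate dehydrogenase, links the citric acid cycle to the chain and is wholly encoded in the nucleus. SDHA, the flavoprotein that oxidizes succinate, was at 12.45 and 12.60 in untreated and 12.42 and 12.47 in treated cells, a difference of -0.08. SDHC, a membrane anchor, was at 11.55 and 11.20 in untreated and 11.36 and 11.18 in treated cells (-0.11). SDHD, the other anchor, was at 10.39 and 10.14 in untreated and 10.26 and 10.58 in treated cells (0.15). The groups overlapped in all 3 genes, and the median of the complex turned from -0.078 to 0.067 when untreated replicate 1 was left out.

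Complex III, the cytochrome bc1 complex, held the lowest differences of all members. UQCRQ, a small subunit of the complex, was at 13.13 and 13.12 in untreated and 13.05 and 12.32 in treated cells, a difference of -0.44 (95% interval -1.03 to 0.15, adjusted p = 1 by limma). UQCRC2, a core protein on the matrix side, was at 13.57 and 13.51 in untreated and 13.43 and 12.85 in treated cells, a difference of -0.40 (95% interval -0.96 to 0.17). In both genes the treated arrays lay below the untreated ones, but MCP-1-treated replicate 2 was much lower than replicate 1, so that a single array made up most of the difference. UQCRB, a small subunit near the ubiquinone site, showed a smaller step of -0.14 with closer replicates, at 12.62 and 12.50 in untreated and 12.46 and 12.37 in treated cells.

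The partner of UQCRC2 did not share this pattern. UQCRC1, the other core protein, was at 12.79 and 12.77 in untreated and 12.99 and 12.63 in treated cells (0.03), with the treated arrays on either side of the untreated ones. UQCRH, the hinge protein that holds cytochrome c1, was at 11.98 and 11.90 in untreated and 11.94 and 11.99 in treated cells (0.03). UQCR10, a small subunit, was at 12.00 and 11.60 in untreated and 11.86 and 11.95 in treated cells (0.11). UQCRHL, a close copy of UQCRH with which it may share signal, was at 7.10 and 6.99 in untreated and 7.53 and 6.38 in treated cells (-0.09), the last of these below the negative control level of its array.

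Complex IV, cytochrome c oxidase, hands electrons to oxygen, and several of its nuclear subunits exist as a widespread form and a tissue form. The widespread forms COX4I1, COX6A1, COX6B1, COX7A2, COX7B and COX8A, as well as COX7A2L, were above the negative control level on all 4 arrays. COX4I2, the lung and hypoxia-induced form, lay between 3.69 and 4.72 and thus below it on every array. The muscle form COX7A1 (3.55 to 4.28) and the testis forms COX6B2 (2.52 to 3.02), COX7B2 (2.51 to 3.31) and COX8C (3.73 to 3.98) were also below it on all 4 arrays, and the muscle form COX6A2 was below it on 3 of 4. ATP5MGL of complex V, a copy of ATP5MG, was below it on all arrays as well (5.26 to 5.75).

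Of the 77 members, 71 had a mean above the negative control level, and the 6 below it were COX4I2, COX6B2, COX7A1, COX7B2, COX8C and ATP5MGL. Differences in these genes are differences at the level of background. This holds for COX6B2, the only complex IV member with both treated arrays above both untreated ones (2.57 and 2.52 against 2.71 and 3.02), and for COX7B2, which had the lowest difference of the complex (-0.37). Among the 71 genes above the level, 53 were lower and 18 higher, with a median of -0.092.

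**Figure D4:**
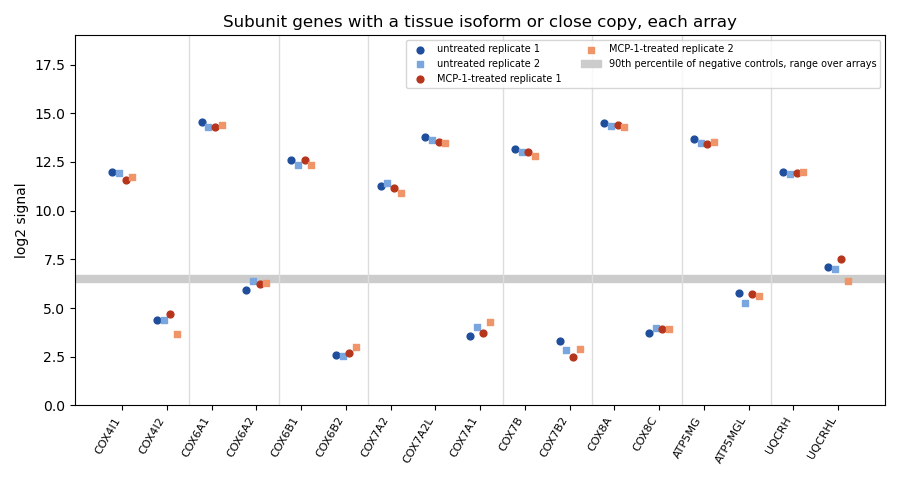
Log2 signal on each array (points) of subunit genes that have a tissue isoform or a close copy. The grey band is the range over arrays of the 90th percentile of the negative controls (6.36 to 6.70). The widespread forms lie above the band, while COX4I2, COX6B2, COX7A1, COX7B2, COX8C and ATP5MGL lie below it on all 4 arrays, treated or not.

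Among the expressed complex IV genes, COX7A2, COX5B and COX4I1 had the lowest differences. COX7A2 was at 11.27 and 11.42 in untreated and 11.15 and 10.90 in treated cells, a difference of -0.32 without overlap. COX4I1, the regulatory subunit that binds ATP, was at 11.97 and 11.92 in untreated and 11.56 and 11.74 in treated cells, a difference of -0.29 without overlap (95% interval -0.83 to 0.25). COX5B, which sits on the matrix side, was at 10.36 and 10.28 in untreated and 10.34 and 9.67 in treated cells (-0.31), so that only MCP-1-treated replicate 2 was clearly lower. COX7A2L, known for its part in joining complexes III and IV into supercomplexes, was at 13.79 and 13.63 in untreated and 13.52 and 13.47 in treated cells, a difference of -0.22 without overlap.

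The highest differences among expressed complex IV genes were small. COX7C was at 12.44 and 12.26 in untreated and 12.38 and 12.55 in treated cells (0.11). COX6C was at 13.29 and 13.09 in untreated and 13.11 and 13.32 in treated cells (0.03). COX6A2, close to background, was at 5.91 and 6.38 in untreated and 6.23 and 6.27 in treated cells (0.10), and COX6B1 differed by 0.00. In each of these genes the groups overlapped.

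Complex V makes ATP in its F1 head, which is driven by a ring of c subunits in the membrane and held by a peripheral stalk. All 4 members of the head and central stalk had a lower mean, with differences of -0.08 for ATP5F1A and -0.04 for ATP5F1B, the alpha and beta subunits, -0.16 for ATP5F1C, the gamma subunit, and -0.07 for ATP5F1D, the delta subunit. ATP5F1B was at 15.82 and 15.98 in untreated and 16.03 and 15.68 in treated cells, and ATP5F1A was at 12.72 and 12.74 in untreated and 12.72 and 12.58 in treated cells. Only ATP5F1C separated the groups, at 15.56 and 15.51 in untreated and 15.24 and 15.49 in treated cells, with treated replicate 2 just below both untreated arrays.

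The c subunit, whose mature protein is the same from all 3 of its genes, gave no common direction. ATP5MC1 was at 15.28 and 15.15 in untreated and 15.29 and 15.16 in treated cells (0.01). ATP5MC2 was at 14.26 and 14.28 in untreated and 14.23 and 14.19 in treated cells (-0.06, without overlap). ATP5MC3 was at 11.73 and 11.99 in untreated and 11.78 and 12.18 in treated cells (0.12), the highest difference in the complex among genes above background.

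The other membrane subunits, which help to shape the dimer of the enzyme, were lower in all 4 cases, with a median of -0.197. ATP5MJ, a small proteolipid, was at 12.28 and 12.08 in untreated and 12.01 and 11.79 in treated cells, a difference of -0.28 without overlap (95% interval -0.82 to 0.25). ATP5MF, subunit f, was at 16.13 and 15.87 in untreated and 16.02 and 15.45 in treated cells (-0.27), with replicate 2 lower than replicate 1 in both groups. ATP5ME was lower without overlap (-0.13), and in ATP5MG the arrays overlapped (-0.10).

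In the peripheral stalk 2 members were lower and 2 close to 0. ATP5PO, the oligomycin sensitivity-conferring protein at the top of the stalk, was at 15.17 and 15.20 in untreated and 15.14 and 14.81 in treated cells (-0.21), and ATP5PD differed by -0.16, both without overlap. ATP5PF was at 16.28 and 16.18 in untreated and 16.32 and 16.18 in treated cells (0.02), and ATP5PB differed by 0.00. ATP5IF1, which blocks ATP hydrolysis by the enzyme, was at 13.19 and 12.92 in untreated and 13.06 and 13.07 in treated cells (0.02), and the readthrough transcript ATP5MF-PTCD1 differed by -0.05.

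With MCP-1-treated replicate 1 left out, 6 members passed an unadjusted p below 0.05 and a 1.5-fold change, where 0 did with all arrays. This was 7.79% of the members beside 8.83% of all tested probe sets, and thus no more than the background. The genes were UQCRQ (-0.80), UQCRC2 (-0.69), COX5B (-0.65), NDUFV2 (-0.92), UQCRHL (-0.66) and COX4I2 (-0.71). The adjusted p of each was 0.50 by limma, and 0 passed with MCP-1-treated replicate 2 left out, beside 5.04% of all tested probe sets. MCP-1-treated replicate 2, low in these genes, was also the array least correlated with the others, and the part of this in their values was not tested.

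Another list held 8 genes outside the symbol rule, namely subunits, electron carriers and factors associated with complex IV. COX20, HIGD1A, HIGD2A and SMIM20 are such factors rather than established subunits or carriers. Of the list, 7 had a probe set, of which 5 were lower and 2 higher, with a median of -0.025. Without overlap, 3 (42.9%) were lower and 2 (28.6%) higher, beside 15.2% and 16.3% of all tested probe sets. CYC1, the cytochrome of complex III, was at 13.18 and 13.11 in untreated and 13.08 and 13.04 in treated cells (-0.09), lower without overlap. CYCS, cytochrome c itself, was higher without overlap, at 14.44 and 14.48 in untreated and 14.56 and 14.77 in treated cells (0.21). NDUFAB1, the acyl carrier protein of complex I, differed by -0.22 and HIGD1A by -0.21, both lower without overlap, and COX20 differed by 0.17, higher without overlap. HIGD2A (-0.02) and SMIM20 (-0.01) overlapped.

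Assembly factors, which build the complexes but are not part of them, were even. Of 49 listed factors 46 had a probe set, of which 23 were lower and 23 higher, with a median of 0.0077, and 6 were lower and 7 higher without overlap, beside 15.2% and 16.3% of all tested probe sets. Limma listed 1 of them at an unadjusted p below 0.05, beside 4.95% of all, and called 0 after adjustment: COX19, a copper chaperone factor of complex IV, at -0.70 (adjusted p = 0.96), whose signals of 4.69 to 5.74 lie below the negative control level. The 74 mitochondrial ribosomal protein genes, which serve translation inside the organelle, were lower in 40 and higher in 34 cases, with a median of -0.0148. They were lower without overlap in 13 and higher in 9 cases. The subunit genes differed from these lists in their median, but the difference between lists was not tested.

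Of 17 regulators of mitochondrial content and of the choice between respiration and glycolysis, 15 had a probe set and 0 were called by limma. Of these, 8 were higher and 7 lower. In each direction 3 (20%) did not overlap, beside 15.2% of all tested probe sets lower and 16.3% higher. MYC, a growth regulator that also drives mitochondrial genes, had the lowest difference (-0.45, lower without overlap). NRF1, the factor whose letters are printed above, was at 8.88 and 8.66 in untreated and 8.77 and 8.99 in treated cells (0.11), and TFAM, which packs and transcribes mitochondrial DNA, differed by 0.13. PPARGC1A, a coactivator of mitochondrial genes, was at 6.99 and 6.94 in untreated and 6.64 and 6.69 in treated cells. The last of these lay below the negative control level of its array (6.70), and the difference was -0.30 without overlap. PPRC1, a relative of PPARGC1A, differed by 0.23, higher without overlap, and GABPA, the DNA-binding part of GABP, by 0.30 with overlapping arrays. PDK1, a kinase that keeps pyruvate out of the citric acid cycle, was at 9.57 and 9.59 in untreated and 9.81 and 10.01 in treated cells, a difference of 0.33 without overlap. EPAS1, the hypoxia-inducible factor that dominates in this cancer, differed by -0.13 with overlapping arrays. All of these had an adjusted p of 1 by limma.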

How the data were processed

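The authors scanned 4 Clariom S arrays and summarised each probe set to a log2 signal in Affymetrix Expression Console 1.4, using SST and RMA (signal space transformation, then robust averaging over arrays). They deposited 1 table of these log2 values. Scans and detection calls were not used here, and precision is limited by the number of arrays. After removal of 2903 controls from the 24351 rows, 21448 probe sets were tested, of which 17709 had a symbol in the platform annotation.

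The model, in limma 3.58.1 (R 4.3.3), had terms for treatment and for the replicate number as a block, following the paired t-test of the study's methods, and p was adjusted by Benjamini and Hochberg over all tested probe sets. Nothing shows that the numbers pair the cultures: deviations of same-numbered arrays from their group means correlated at -0.0466. The labels call the treated arrays biological replicates and say nothing of the untreated ones, so no p-value extends beyond these arrays. With 1 residual and 9.6 prior degrees of freedom, limma's standard errors rest mostly on a spread shared by all probe sets. They ran only from 0.24 to 0.30 in the members and hardly follow a gene's own replicates. Alternatives changed the block, background level, scaling, prior, probe choice and arrays. The methods' t-test was run with p below 0.05 and a fold of 2 or 1.5. The limma steps were tested on simulated data.

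Members and lists were chosen with earlier results of these data known. Named are, in complexes I, III, IV and V, the 3 highest and 3 lowest differences above the negative controls, all of complex II, the catalytic cores, isoforms, genes near background and 8 fixed genes outside, of which 7 had a probe set. Other named genes were chosen after their values were seen.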

Additional observations from a re-analysis of the deposited data

How the results depend on the processing

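No member was called under any of the alternatives run, the lowest adjusted p of a member in any of them being 0.50, and without the replicate block 0 members and 0 of all probe sets were called, against 7 probe sets with it. The count over all probe sets was 49 among those above the negative controls, 69 with a trended robust prior, 8 with 1 probe set per gene, and 0 with centred arrays, after quantile normalization and with any 1 array left out. The methods' t-test gave 20 at a fold of 2, 123 at a fold of 1.5 and 4 after adjustment, and 0 members each time. With the trended robust prior, limma listed 4 of 77 members at an unadjusted p below 0.05, beside 1150 of 21448 probe sets. The smallest adjusted p of a member by limma was 0.60 there, and the standard errors of members ran from 0.13 to 0.34. Members past an unadjusted p of 0.05 and a fold of 1.5 numbered 0 to 6 with 1 array left out. Members without overlap numbered 22, and 44 to 56 with 1 array left out, where fewer arrays separate more easily. With 1 array left out, 27 to 43 were lower (35.1% to 55.8%, beside 28.9% to 37% of all tested probe sets). Between 9 and 17 were higher (11.7% to 22.1%, beside 30.6% to 41.6%). With all arrays, higher members without overlap numbered 2 (2.6%, beside 16.3% of all tested probe sets). They numbered 4 after quantile normalization, 1 above the negative controls and 1 above a mean log2 signal of 10. With 1 array left out, the median difference ranged from -0.172 to -0.046 for all members, from -0.0503 to 0.067 for complex II, from -0.169 to -0.0359 for complex III, and from -0.196 to -0.0614 for complex IV, and in pair 2 alone complex III was at -0.133. It ranged from -0.193 to -0.025 for complex I and from -0.082 to -0.0229 for complex V, without untreated replicate 1 or MCP-1-treated replicate 2 the nearest to 0, respectively. Of 534 values of 45 named members under alternatives, 38 moved by more than the spread between replicates. That spread is the root mean square of the standard deviations of both groups. Leaving out 1 array cannot move a difference by more than this, and a change of block, prior or probe choice leaves the difference as it is. The low count therefore does not show that the values are stable. Of the 444 values that do not take 1 pair alone, 34 in 24 genes changed sign, and the cause was not tested. With 2 arrays a group, the 95% interval of a member in the main model reached a median of 1.46-fold to either side. Genes under the negative control level have no measured change.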
